A study of Mus musculus with 16 samples.

Results

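The cytochrome P450 genes were followed in single mouse two-cell stage embryos with and without the maternal pool of KDM1A, a histone demethylase that acts on methylated H3K4 and H3K9. The genes were taken by name, as all rows whose symbol is Cyp followed by a digit, without regard to their values. This gave 104 of the 24063 genes of the count tables. A gene was called measured when its counts over the 16 libraries added up to at least 160, and 37 of the 104 genes (35.6%) reached that sum.

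P450 enzymes hold a heme group, take electrons from a reductase partner and insert an oxygen atom into lipids and foreign compounds. Some members have a fixed place in a pathway. Aromatase (Cyp19a1) makes estrogen from androgen and is best known from ovarian granulosa cells, Cyp11a1 opens steroid synthesis by cutting the side chain of cholesterol, Cyp51 removes a methyl group from lanosterol on the way to cholesterol, and Cyp26a1 breaks down retinoic acid. Most members of the Cyp2, Cyp3 and Cyp4 families work in liver, lung, kidney or gut on drugs, steroids and fatty acids.

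Embryos of 2 groups were compared, all from females aged 4 to 8 weeks. Δm/wt embryos came from superovulated Kdm1a f/f females that carry Zp3-cre, a transgene active in growing oocytes only, so that these embryos lacked the maternal product. The f/wt embryos came from superovulated Kdm1a f/f females without the transgene. All females had been mated with wild-type males (B6D2F1 by the methods). Embryos of both groups thus held an intact paternal Kdm1a allele and differed in the maternal allele and in the maternal pool. Each of the 8 Δm/wt and 8 f/wt libraries was made from 1 whole embryo with an oligo-dT method that reads transcripts toward their 3′ ends. The sources used here do not tie an embryo to a female, so p-values measure the spread between embryos.

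The libraries held 4049168 to 14334244 gene counts in Δm/wt embryos and 3212510 to 9337451 in f/wt embryos. The f/wt libraries 2 and 3 differed far less than any other pair of libraries of a group, with a mean chi-square per gene of 1.89 against 45.6 to 366 for the other 55 pairs, and were summed and counted as 1 sample, which left 8 Δm/wt and 7 f/wt samples. Levels are given as CPM, counts per 1000000 counts of a library after TMM scaling between libraries, and differences as the log2 fold change of Δm/wt over f/wt with its standard error (SE) from edgeR's quasi-likelihood test, adjusted by the Benjamini-Hochberg method over the 11344 genes kept for testing. A gene called higher or lower passed an adjusted p of 0.05. Kdm1a itself, the check of the labels, had 0 to 4.03 CPM in Δm/wt embryos and 0.991 to 20.3 CPM in f/wt embryos (log2 fold change -2.99, adjusted p = 0.0211). The reads lie toward the 3′ end and the deleted part is the first exon, so this level does not test the deletion itself. The call did not hold with scaling to the reference genes Hprt, Gapdh and Ppia (-1.89, adjusted p = 0.18), in embryos 4 to 8 alone (log2 fold change -3.79, adjusted p = 0.0701) or with Δm/wt 1 to 3 as the only Δm/wt embryos (-2.19, adjusted p = 0.152).

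Markers of several cell types were summed in each sample, and their part in the results was not tested. Over all genes tested 21.9% were higher and 22.8% lower. The oocyte markers (11 genes, 8 of the 9 tested higher) added up to 10014 to 25798 CPM in Δm/wt embryos and 1661 to 3339 CPM in f/wt embryos, and no embryo of one group fell into the range of the other. The markers of two-cell stage embryos (10 genes, 2 of the 8 tested lower and none higher) added up to 114 to 6039 CPM in Δm/wt embryos. In f/wt embryos they added up to 1506 to 4073 CPM, within the Δm/wt range. The myeloid markers (7 genes, all of them tested and higher) reached 9.27 to 22.3 CPM in Δm/wt 1 to 3, 103 to 1951 CPM in Δm/wt 4 to 8 and 0.992 to 12.3 CPM in f/wt embryos. Liver markers (5 genes, none tested) stayed at 0.155 to 8.86 CPM in Δm/wt embryos and 0 to 3.5 CPM in f/wt embryos. Since whole embryos were lysed, the number of any myeloid or liver cells and the RNA per such cell cannot be told apart.

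**Figure D1:**
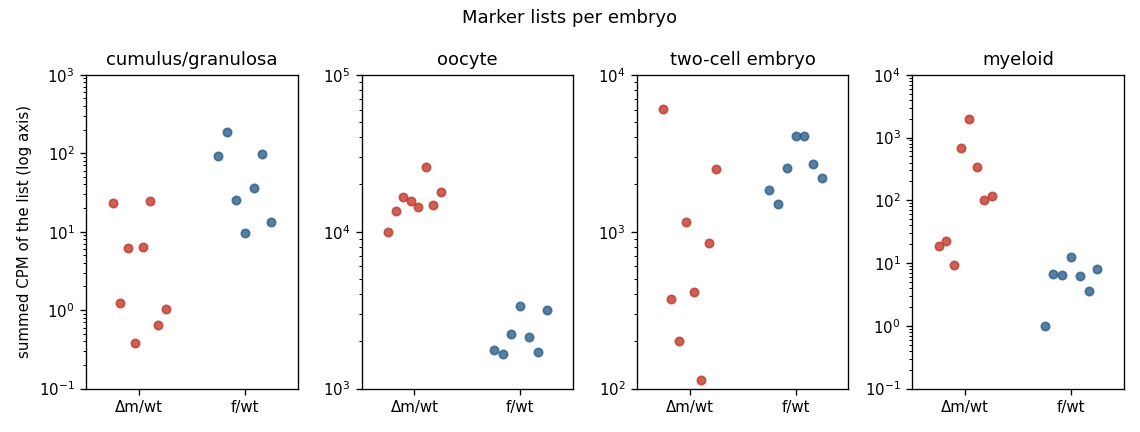
Summed CPM of 4 marker lists per sample, on log axes, with the Δm/wt samples at the left and the f/wt samples at the right of each panel. Oocyte markers separate the groups, and myeloid markers are high in Δm/wt 4 to 8. Cumulus and granulosa markers lie at 0.383 to 24.6 CPM in Δm/wt and 9.51 to 185 CPM in f/wt. Without Amhr2 the other 19 genes of that list overlap, at 0.383 to 24.3 CPM in Δm/wt and 0.495 to 10.2 CPM in f/wt.

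More of the P450 family was counted in Δm/wt embryos. The number of Cyp genes with at least 10 counts was 13 at the lowest, 23 at the median and 34 at the highest in Δm/wt samples, and 6, 16 and 26 in f/wt samples. This cutoff was not adjusted for the depth of a library. Of all genes, 11250 to 14347 had a count in Δm/wt libraries and 11901 to 14444 in f/wt libraries. The CPM of all 104 genes added up to 290.1, 468 and 811 in Δm/wt samples (lowest, median and highest). In f/wt samples the sums were 123, 203 and 289. Each Δm/wt sample lay above each f/wt sample in this sum, but narrowly, with 290.1 in Δm/wt 1 against 288.8 in f/wt 5. Cyp19a1 alone gave 29.9 CPM in Δm/wt 1, more than this margin, and Cyp4v3 gave 496 CPM of the sum in Δm/wt 8. Of the 24 measured genes with enough counts for the test, 10 were higher in Δm/wt embryos, 1 was lower and 13 were not called, while over all genes tested 21.9% were higher and 22.8% lower. The median log2 fold change was 2.36 over the 24 genes and 0.04 over all genes tested. The genes tested include several that passed the count filter through Δm/wt embryos alone, so these counts are a description of the genes that could be tested, not of all 104. Cyp19a1, Cyp4a10 and Cyp2b13 had every Δm/wt sample above every f/wt sample, a pattern that 7.18% of all genes showed, and no Cyp gene had every Δm/wt sample below, a pattern of 9.04% of all genes.

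With Δm/wt 1 to 3, the embryos low in myeloid markers, as the only Δm/wt embryos, 18 of these Cyp genes were kept by the filter. This choice was made after the data were seen. Of the 18 genes, 2 were higher (Cyp19a1 and Cyp4a14) and 1 was lower (Cyp51). In that fit 1250 of all 10950 genes tested were higher and 2015 lower. Cyp26a1, Cyp2b13, Cyp2a4 and Cyp4a10 then had too few counts for the test.

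**Figure D2:**
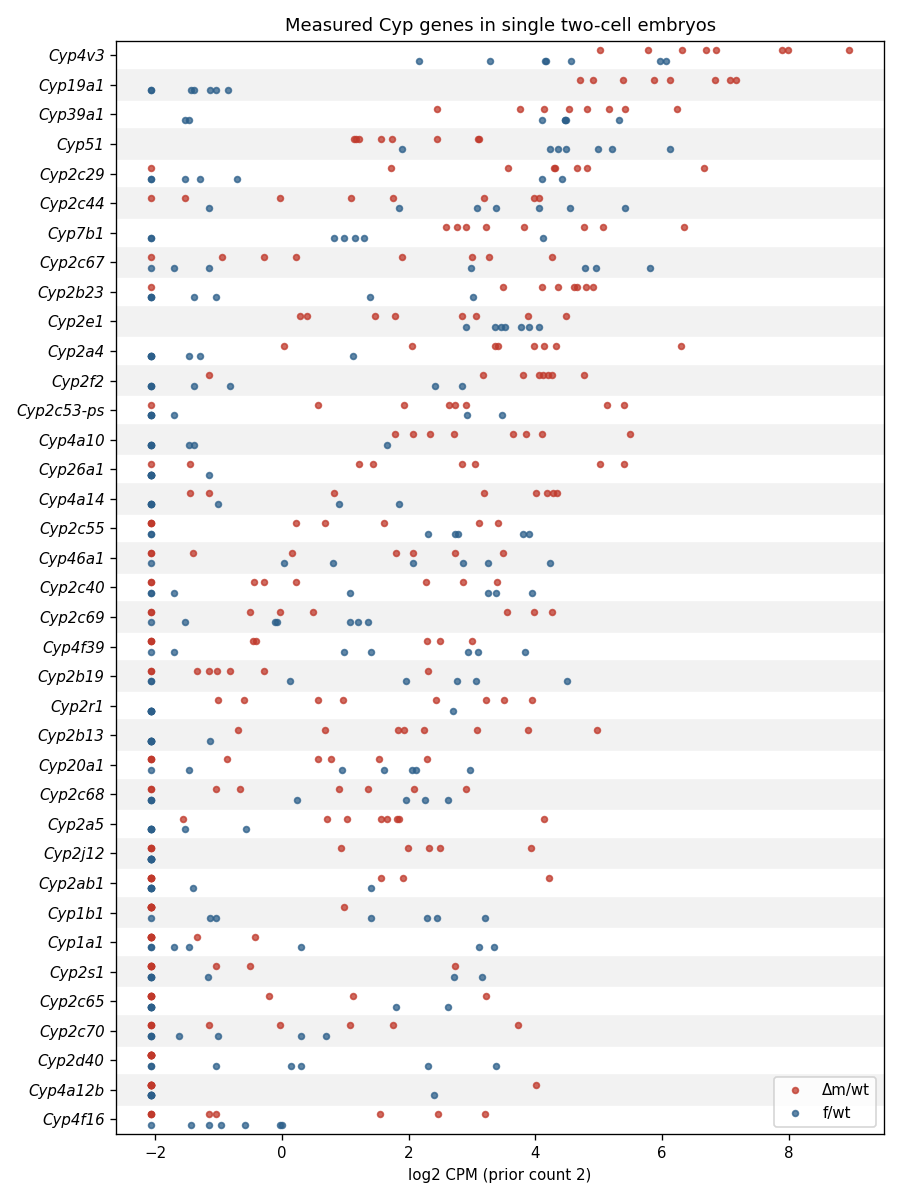
Log2 CPM (with a prior count of 2) of the 37 measured Cyp genes, each point 1 sample, Δm/wt above f/wt within each gene and genes ordered by summed counts. Points at the left edge are samples with 0 counts; Cyp19a1 has all 8 Δm/wt samples to the right of all 7 f/wt samples.

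**Figure D3:**
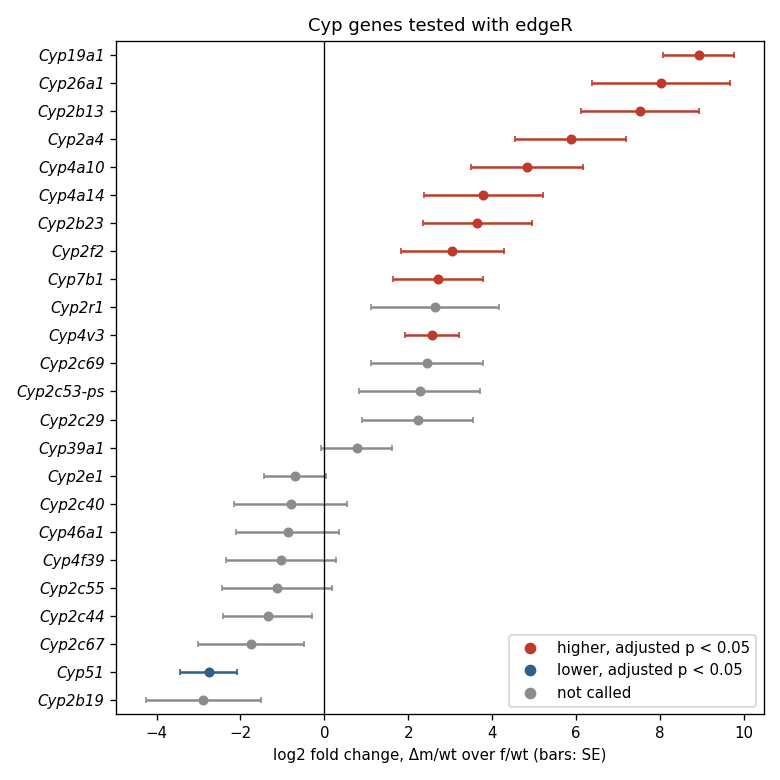
Log2 fold changes of Δm/wt over f/wt for the 24 Cyp genes tested, with bars of 1 SE. The 10 genes called higher run from Cyp19a1 at 8.93 to Cyp4v3 at 2.58, and Cyp51 at -2.76 is the gene called lower.

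The genes of steroid synthesis were led by aromatase. Cyp19a1 (mm10 chr9:54165937-54193442 in the count tables, on the minus strand) had 25.9, 64.1 and 143 CPM at the lowest, median and highest in Δm/wt samples, and 0, 0.142 and 0.315 CPM in f/wt samples. All 8 Δm/wt embryos had at least 193 counts, and no f/wt library had more than 3. The mean was 77.1 ± 47.1 CPM in Δm/wt (SD, n = 8) and 0.150 ± 0.120 CPM in f/wt (SD, n = 7), with a log2 fold change of 8.93 ± 0.85 (SE, edgeR adjusted p = 3.95e-07). Pooled over libraries, 4320 counts in Δm/wt stood against 9 in f/wt, a ratio of 564 with a 95% interval of 297 to 1234 that covers counting error only. The call held under every alternative run, with log2 fold changes of 8.66 to 9.23 when each sample was left out in turn.

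Aromatase is a gene of granulosa cells, so the markers of these cells were set beside it. Their sum was 0.383 to 24.6 CPM in Δm/wt samples and 9.51 to 185 CPM in f/wt samples. Most of it in f/wt came from Amhr2, and the other 19 genes added up to 0.383, 2.47 and 24.3 CPM in Δm/wt samples and 0.495, 4.44 and 10.2 CPM in f/wt samples (lowest, median and highest), with overlap. Of the 20 genes, Fshr, Foxl2, Inhba and Amh had 0 counts in all libraries, and Lhcgr, Inha and Nr5a1 had 0 counts in Δm/wt. Other genes of the list were counted. The number detected (at least 10 counts) was 3 in Δm/wt 1 and 6 and 0 in Δm/wt 2, 4, 7 and 8. It was 1 to 3 in f/wt samples. The source of the Cyp19a1 transcripts was not tested. Of the list of 20 genes only Amhr2 and Star had enough counts for the test. Amhr2, the receptor of anti-Müllerian hormone, was lower in Δm/wt embryos, with 0 to 2.39 CPM against 2.81 to 182 CPM in f/wt (log2 fold change -6.92 ± 1.11, adjusted p = 5.99e-05). Star, which carries cholesterol into mitochondria, had 0 to 16.4 CPM in Δm/wt and 0 to 9.09 CPM in f/wt and was not called (adjusted p = 0.556). In Δm/wt 1 to 3, where myeloid markers were lowest, Cyp19a1 had 29.9, 134 and 143 CPM.

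The other P450 genes of steroid hormone synthesis had few counts or none. Cyp11a1 did not reach the minimum, with 76 counts in Δm/wt (0, 5, 10, 24, 0, 24, 13 and 0 in embryos 1 to 8) and 2 counts in f/wt, both in f/wt 6. Its highest level was 3.34 CPM in Δm/wt and 0.248 CPM in f/wt, and the groups overlapped at 0. In the fit without the filter on low counts Cyp11a1 was higher (log2 fold change 4.55, adjusted p = 0.0358), a call that ended when any of 8 single samples was left out (adjusted p up to 0.0616). Cyp17a1, which makes androgens, had 3 counts in all, Cyp21a1 also 3, and Cyp11b1 and Cyp11b2, which finish glucocorticoid and mineralocorticoid synthesis, had none. Among 6 members assigned to steroid hormone synthesis, aromatase was thus the one measured.

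RefSeq lists 3 starts for Cyp19a1, and aromatase is known for first exons that differ between tissues. Reads near the 3′ end cannot tell them apart. The window of 250 bases before to 50 after the start that lies nearest to the counted gene model is shown with the letters TATAAA, on either strand, in capitals.

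Cyp19a1, chr9:54193694-54193993 (GRCm38.p6, minus strand): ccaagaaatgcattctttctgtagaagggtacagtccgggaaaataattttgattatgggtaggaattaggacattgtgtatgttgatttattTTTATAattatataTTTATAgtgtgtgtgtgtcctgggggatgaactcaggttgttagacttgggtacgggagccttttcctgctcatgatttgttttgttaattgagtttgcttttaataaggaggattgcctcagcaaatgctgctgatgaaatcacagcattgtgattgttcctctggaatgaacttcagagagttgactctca

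These letters begin 157 and 143 bases before the start. In the middle one of the 3 windows they stand 31 and 29 bases before it, and the third holds none. TATAAA occurs in 13.6% of all 32851 RefSeq promoter windows and in 39.1% of the 87 windows of Cyp genes. The letters AAGGTCA, a half-site of NR5A receptors, occur in 4.72% of all windows and in none of the 3 of Cyp19a1. A match is a description of the sequence and says nothing of use in these embryos.

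**Figure D4:**
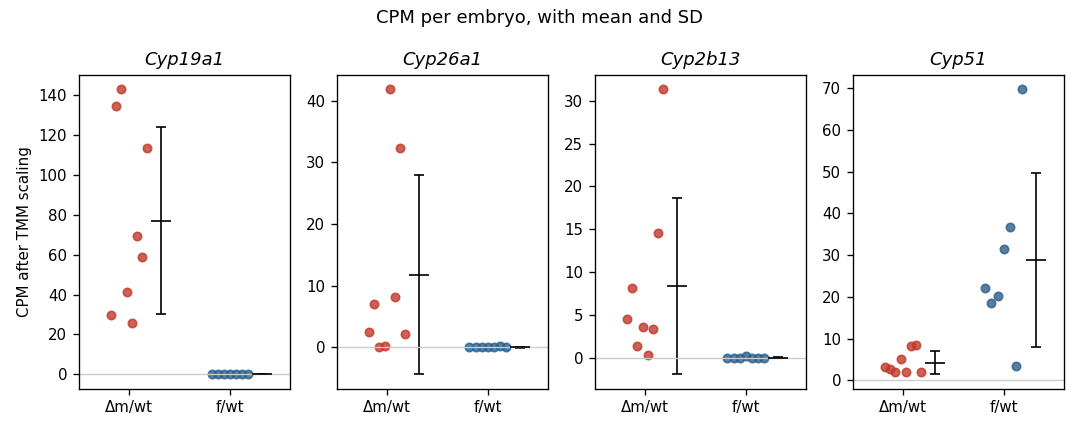
CPM after TMM scaling of Cyp19a1, Cyp26a1, Cyp2b13 and Cyp51, each point 1 sample, Δm/wt left of f/wt, with the mean and SD beside the points. In the first 3 genes the f/wt points lie at or near 0; for Cyp51 the f/wt sample 7, at 3.47 CPM, lies among the Δm/wt samples.

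Cholesterol synthesis held the only member called lower. Cyp51 (mm10 chr5:4080674-4104697) had 1.95, 2.91 and 8.42 CPM at the lowest, median and highest in Δm/wt samples, and 3.47, 22.1 and 69.7 CPM in f/wt samples. The f/wt sample 7 lay inside the Δm/wt range and the other 6 f/wt samples above it. The mean was 4.24 ± 2.77 CPM in Δm/wt and 28.9 ± 20.9 CPM in f/wt, with a log2 fold change of -2.76 ± 0.68 (SE, adjusted p = 0.00274), and the call held under every alternative run. The promoter window is shown with the letters TCACCTCAG, the core of the sterol regulatory element known for this gene, in capitals.

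Cyp51, chr5:4104648-4104947 (GRCm38.p6, minus strand): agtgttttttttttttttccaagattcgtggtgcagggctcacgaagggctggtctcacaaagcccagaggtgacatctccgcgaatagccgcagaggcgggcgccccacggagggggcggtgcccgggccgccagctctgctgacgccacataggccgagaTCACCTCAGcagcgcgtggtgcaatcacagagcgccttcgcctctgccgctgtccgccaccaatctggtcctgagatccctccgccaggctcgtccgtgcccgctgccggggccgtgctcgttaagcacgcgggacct

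These letters begin 88 bases before the start and occur, on either strand, in 125 of all 32851 windows (0.381%) and in 1 of the 87 windows of Cyp genes.

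Other genes of cholesterol synthesis and uptake did not move together. Of the 25 listed, 22 were tested, 2 were higher and 5 lower (all genes tested: 21.9% higher, 22.8% lower). The median log2 fold change was -0.35. Lss, which makes the lanosterol that Cyp51 acts on, had 0.126, 5.48 and 12.2 CPM in Δm/wt samples and 16.9, 30.7 and 70.5 CPM in f/wt samples (lowest, median and highest), with all Δm/wt samples below all f/wt samples (log2 fold change -2.63, adjusted p = 0.0151). Scaled to Hprt, Gapdh and Ppia it missed the threshold (-2.01, adjusted p = 0.0732). Acat2, an early enzyme of the pathway, averaged 25.3 CPM in Δm/wt and 61.6 CPM in f/wt (log2 fold change -1.28, adjusted p = 0.0289), a call lost under 8 of the alternatives, the same scaling among them (-0.36, adjusted p = 0.636). Sc5d, which introduces a double bond late in the pathway, was higher, with 81.6 CPM in Δm/wt and 11.6 CPM in f/wt (2.82, adjusted p = 0.0023), but missed the threshold with embryos 4 to 8 (2.17, adjusted p = 0.0757). Hmgcs1, an enzyme of the first steps, averaged 346 CPM in Δm/wt and 149 CPM in f/wt and was not called (1.21, adjusted p = 0.129), though it was higher with the reference gene scaling (2.16, adjusted p = 0.00725) and without f/wt 8 (1.81, adjusted p = 0.0246).

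Among the genes that turn cholesterol into oxysterols and bile acids, Cyp7b1, an oxysterol 7-alpha-hydroxylase, was called higher. It had 5.79, 11.5 and 80.9 CPM in Δm/wt samples and 0, 1.73 and 17.2 CPM in f/wt samples (lowest, median and highest), with f/wt 6 alone inside the Δm/wt range. The log2 fold change was 2.70 ± 1.07 (adjusted p = 0.0449), and the call ended with library totals (adjusted p = 0.0796), without the filter on low counts (adjusted p = 0.0592), with embryos 4 to 8 (adjusted p = 0.168), with a term for the sets of embryos (adjusted p = 0.0657), with Δm/wt 1 to 3 as the only Δm/wt embryos (adjusted p = 0.262) and when any of 10 single samples was left out, Δm/wt 8 among them (2.06, adjusted p = 0.119). Without f/wt 6 it was 4.18. Cyp39a1, which acts on 24-hydroxycholesterol, had 5.23 to 75.4 CPM in Δm/wt and 0.105 to 39.6 CPM in f/wt (log2 fold change 0.78 ± 0.84, adjusted p = 0.467). Cyp46a1, which makes 24-hydroxycholesterol in neurons, had 0 to 10.9 CPM in Δm/wt and 0 to 18.6 CPM in f/wt (-0.88 ± 1.23, adjusted p = 0.578). Cyp7a1 and Cyp27a1 were counted below the minimum, and Cyp8b1 had no counts.

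Retinoic acid has 3 P450 enzymes of the Cyp26 family that remove it, and 1 was measured. Cyp26a1 (mm10 chr19:37697808-37701536) had 0, 4.71 and 41.9 CPM at the lowest, median and highest in Δm/wt samples, and 2 counts in all in f/wt, both in f/wt 7. Among the Δm/wt embryos, 5 and 7 were highest with 333 and 300 counts, while Δm/wt 3 had 0 counts and Δm/wt 4 had 1, so that the groups overlapped. The log2 fold change was 8.03 ± 1.64 (SE, adjusted p = 5.81e-04), and the ratio of the pooled counts, 746 in Δm/wt against 2 in f/wt, was 438 with a 95% counting interval of 121 to 3624. The ratio was 281 without Δm/wt 5, and at least 251 without f/wt 7. The call held under every alternative with enough counts to test it, with log2 fold changes of 7.38 without Δm/wt 5 and 9.61 without f/wt 7. Cyp26b1 had no counts and Cyp26c1 had 7, all in Δm/wt. The promoter of Cyp26a1 is shown with 2 sets of letters in capitals, the direct repeat of retinoic acid response elements (the half-site AGTTCA in 2 copies in the same direction, with 5 bases between them, read here on the other strand) and after it TATAAA.

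Cyp26a1, chr19:37697558-37697857 (GRCm38.p6, plus strand): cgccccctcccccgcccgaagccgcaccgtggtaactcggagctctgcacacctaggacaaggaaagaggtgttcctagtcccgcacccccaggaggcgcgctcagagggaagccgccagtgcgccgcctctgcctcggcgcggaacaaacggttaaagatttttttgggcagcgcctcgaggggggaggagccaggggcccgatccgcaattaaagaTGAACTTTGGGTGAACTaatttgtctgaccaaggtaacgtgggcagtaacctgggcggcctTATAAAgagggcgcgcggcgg

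The repeat begins 32 bases before the start, and the letters TATAAA begin 29 bases after it. The repeat in this exact spelling occurs, on either strand, in 8 of all 32851 windows (0.0244%) and in 1 of the 87 windows of Cyp genes. Other spellings of the element were not searched, so this share does not stand for response elements in general.

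Genes that supply or sense retinoic acid were counted from a list of carriers and synthetic enzymes and a list of receptors. Of the 13 genes of supply, 7 were tested, 4 were higher and none lower (all genes tested: 21.9% higher, 22.8% lower). Their median log2 fold change was 3.77. Fabp5, a carrier of fatty acids and retinoic acid, had 201, 331 and 727 CPM in Δm/wt samples and 15, 24.0 and 61.7 CPM in f/wt samples (lowest, median and highest). Rdh11, a retinal reductase, averaged 153 CPM in Δm/wt and 9.19 CPM in f/wt (log2 fold change 4.06), and Aldh1a2, which makes retinoic acid, 41.3 CPM in Δm/wt and 2.28 CPM in f/wt (4.17). None of these 3 genes had a Δm/wt sample as low as any f/wt sample, a pattern that 7.18% of all genes tested showed. The 3 genes were picked as passing genes of the list with the highest mean CPM, which favours this pattern. Rdh10, which makes retinal from retinol, had 4.60 to 134 CPM in Δm/wt and 38.6 to 179 CPM in f/wt and was not called (adjusted p = 0.284).

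Of the 14 receptors of steroids, retinoids and vitamin D, 6 were tested. Among them 2 were higher and 1 lower (all genes tested: 21.9% higher, 22.8% lower). The retinoic acid receptor gene Rarg was lower, with 0, 0.286 and 3.15 CPM in Δm/wt samples and 9.74, 62.6 and 95.4 CPM in f/wt samples (log2 fold change -6.40, adjusted p = 1.56e-05). The estrogen receptor genes were higher. Esr2 had 16.3, 26.8 and 114 CPM in Δm/wt samples and 0.759, 4.53 and 13.2 CPM in f/wt samples (3.11, adjusted p = 0.00145), again without overlap between the groups. Esr1 averaged 4.54 CPM in Δm/wt and 0.345 CPM in f/wt, with overlap (3.66, adjusted p = 0.0228), and had too few counts for the test under 9 of the alternatives. The glucocorticoid receptor gene Nr3c1 averaged 24.4 CPM in Δm/wt and 11.0 CPM in f/wt and was not called (adjusted p = 0.327).

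The vitamin D enzymes were close to the limit of detection. Cyp2r1, which starts vitamin D activation in liver, had 0.256, 3.43 and 15.2 CPM in Δm/wt samples, while 6 of the 7 f/wt samples had 0 counts and f/wt 1 had 44 counts (6.23 CPM). It was not called with all samples (log2 fold change 2.64, adjusted p = 0.162), and was higher without f/wt 1 (8.55, adjusted p = 0.00103), with embryos 4 to 8 (8.74, adjusted p = 0.0081) and with a term for the sets of embryos (6.34, adjusted p = 0.0380). Cyp27b1, which finishes the activation, had 117 counts, all of them in f/wt, and Cyp24a1, which breaks vitamin D down, had 47, all of them in Δm/wt. Both fell below the minimum.

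Of the genes called higher, 4 lay in the Cyp2a, Cyp2b and Cyp2f cluster, 13 members within 1356 kb (mm10 chr7:25802476-27158564), in which no gap between members reached 1 Mb. It held 4110 counts in Δm/wt and 946 in f/wt. Of its members 7 were measured and 5 tested, of which none was lower (all genes tested: 21.9% higher, 22.8% lower). The 4 called higher had 2 to 164 counts in f/wt and 416 to 1156 in Δm/wt. They thus reached the 316 counts of the filter through Δm/wt embryos, so this count describes only the genes that could be tested. Cyp2b13, a member of a subfamily known from liver, had 0.377, 4.03 and 31.4 CPM in Δm/wt samples and 2 counts in all in f/wt, both in f/wt 5. Each Δm/wt sample lay above each f/wt sample, the log2 fold change was 7.53 ± 1.42 (SE, adjusted p = 2.82e-04), and the ratio of 416 pooled counts in Δm/wt to 2 in f/wt was 244 with a 95% counting interval of 67.2 to 2024. Without f/wt 5 the log2 fold change was 9.13 and the ratio at least 141. Of the 49-base words of Cyp2b13, 27.8% occur in other genes.

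Cyp2b23, of the same cluster, had 0, 22.2 and 29.8 CPM in Δm/wt samples and 0, 0.142 and 7.89 CPM in f/wt samples. Of the Δm/wt samples, 7 lay between 11.0 and 29.8 CPM, above all f/wt samples, and Δm/wt 8 had 0 counts. The call (log2 fold change 3.65 ± 1.30, adjusted p = 0.0273) ended with embryos 4 to 8 (2.92, adjusted p = 0.187), without f/wt 1 (3.45, adjusted p = 0.0504) and with Δm/wt 1 to 3 as the only Δm/wt embryos (4.01, adjusted p = 0.0554), and leaving out f/wt 5 gave 5.30. Cyp2f2, an enzyme of lung club cells, showed the same low Δm/wt embryo, with 0.209 CPM in Δm/wt 8 and 8.76 to 27.2 CPM in the other Δm/wt samples, against 0, 0.142 and 6.90 CPM in f/wt samples (lowest, median and highest). Its log2 fold change was 3.05 ± 1.23 with an adjusted p of 0.0487, and the call ended when any of 12 single samples was left out (adjusted p up to 0.0847), with library totals (adjusted p = 0.0980), without the filter on low counts (adjusted p = 0.0611), with f/wt 2 and 3 apart (adjusted p = 0.0598), with embryos 4 to 8 (adjusted p = 0.124), with a term for the sets of embryos (adjusted p = 0.0564) and with Δm/wt 1 to 3 as the only Δm/wt embryos (adjusted p = 0.127). Without f/wt 2 and 3 the log2 fold change was 3.96.

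Cyp2a4, a steroid 15-alpha-hydroxylase, had 0.781, 13 and 79.0 CPM in Δm/wt samples and 0, 0 and 1.95 CPM in f/wt samples. It was higher (log2 fold change 5.87 ± 1.33, adjusted p = 0.00145), with Δm/wt 3 below f/wt 5. Leaving out f/wt 5 gave 8.22 on the log2 scale and leaving out Δm/wt 4 gave 5.06. Of the 49-base words in the last 3 kb of its transcript, 38.9% also occur in other genes, nearly all in Cyp2a5, a coumarin hydroxylase, so reads of both genes can be exchanged or lost. Cyp2a5 itself had 239 counts in Δm/wt and 5 in f/wt, too few for the main test. Cyp2b19, known from skin, had 0.230 CPM at the median in Δm/wt and 3.64 CPM in f/wt. It was not called (log2 fold change -2.89, adjusted p = 0.0904) but was lower without Δm/wt 4 (-4.62, adjusted p = 0.0141). Cyp2g1 (82 counts), Cyp2b10 (41) and Cyp2b9 (13), all of the same cluster and below the minimum, had all their counts in Δm/wt embryos, whereas Cyp2a22 (16 counts in Δm/wt, 89 in f/wt) and Cyp2a12 (0 in Δm/wt, 21 in f/wt) had most or all of theirs in f/wt embryos.

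The Cyp4 family hydroxylates the far end of fatty acids, and 4 of its 22 members were tested. Cyp4v3, whose human counterpart is mutated in a retinal dystrophy, had the most counts of any Cyp gene. It had 32.2, 109 and 496 CPM in Δm/wt samples and 4.25, 17.7 and 66.4 CPM in f/wt samples (lowest, median and highest). The mean was 172 ± 154 CPM in Δm/wt and 28.7 ± 25.1 CPM in f/wt, the log2 fold change 2.58 ± 0.64 (SE, adjusted p = 0.00298). The f/wt samples 5 and 7, at 66.4 and 62.3 CPM, lay above Δm/wt 1 and 2. With Δm/wt 1 to 3 as the only Δm/wt embryos the call was lost (1.86, adjusted p = 0.0754), and no other alternative ended it.

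Cyp4a10 and Cyp4a14, fatty acid hydroxylases that PPARα induces in liver, were both higher. They lie in a cluster of 11 members on chr4, with 1644 counts in Δm/wt and 149 in f/wt. Both passed the count filter through Δm/wt embryos, with 792 and 612 counts there against 29 and 45 in f/wt. Cyp4a10 had 3.19, 9.33 and 45.0 CPM in Δm/wt samples and 0, 0 and 2.92 CPM in f/wt samples, without overlap (log2 fold change 4.83 ± 1.33, adjusted p = 0.0061). Leaving out f/wt 5 moved it to 7.95 and leaving out Δm/wt 5 to 4.25. Of its 49-base words 31.1% occur in other genes, mostly Cyp4a32. Cyp4a14 had 0.128, 12.4 and 20.1 CPM in Δm/wt samples and 0, 0 and 3.34 CPM in f/wt samples (3.79 ± 1.41, adjusted p = 0.0339). Here Δm/wt 4, 6 and 8 lay within the f/wt range, and the call ended with embryos 4 to 8 (2.5, adjusted p = 0.287), with a term for the sets of embryos (adjusted p = 0.0764) and when any of 8 single samples was left out, at adjusted p up to 0.0606. Without f/wt 6 the log2 fold change was 4.99. Cyp4f39 had 0.499 CPM at the median in Δm/wt and 2.41 CPM in f/wt and was not called (adjusted p = 0.536).

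The Cyp2c cluster on chr19, whose members oxidise drugs and arachidonic acid, showed no call in the main test. It has 15 members, of which 9 were measured and 6 tested (all genes tested: 21.9% higher, 22.8% lower). With 6 genes tested, the lack of a call does not set the cluster apart. The cluster held 4059 counts in Δm/wt and 2624 in f/wt. Cyp2c29 had 0, 19.5 and 101 CPM in Δm/wt samples and 0, 0.171 and 21.3 CPM in f/wt samples, with Δm/wt 8 at 0 and f/wt 5 and 8 inside the Δm/wt range (log2 fold change 2.22 ± 1.33, adjusted p = 0.175). Scaled to Hprt, Gapdh and Ppia it was called higher (3.77, adjusted p = 0.0252), as was Cyp2c69 (3.49, adjusted p = 0.0457). Cyp2c67 had 0 to 18.9 CPM in Δm/wt and 0 to 56.2 CPM in f/wt (-1.75, adjusted p = 0.263). In Cyp2c67, Cyp2c40, Cyp2c69 and Cyp2c68 between 44.0% and 72.7% of the 49-base words are shared with other genes, so their separate values are uncertain.

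Cyp2e1 and Cyp2c44 of the same family lie outside these clusters. Cyp2e1, the ethanol-oxidising enzyme of liver, was present in every sample, with 0.974, 5.06 and 22.2 CPM in Δm/wt samples and 7.25, 11.2 and 16.5 CPM in f/wt samples. The f/wt samples lay within the range of the Δm/wt samples, and the gene was not called (log2 fold change -0.69 ± 0.74, adjusted p = 0.460). Cyp2c44 had 0, 2.51 and 16.4 CPM in Δm/wt samples and 0.210, 10.2 and 42.3 CPM in f/wt samples (-1.35 ± 1.06, adjusted p = 0.308).

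For 13 measured genes the sum of counts was too small for the main test, and they were read from a fit without the filter on low counts, in which 18% of 18907 genes were higher and 19.2% lower. Of the 13, 2 were higher and 2 lower. Cyp2j12, of a family that epoxidises arachidonic acid, had 223 counts in 5 Δm/wt embryos and none in f/wt, at least 87.3-fold higher against a floor of 3 counts over the group (adjusted p = 0.00505). Of these counts 108 came from Δm/wt 6, and without that embryo the limit was 51.4-fold. Cyp2a5 was also higher (log2 fold change 5.39, adjusted p = 0.0084), at 4.51 without Δm/wt 4 and 6.92 without f/wt 5. Cyp2d40 had none in Δm/wt and 169 counts in 5 f/wt samples, at least 48-fold lower by the same floor (adjusted p = 0.00577). Here f/wt 7 gave 97 of the counts, and without it the limit was 23.8-fold.

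Both measured genes of the Cyp1 family, which the aryl hydrocarbon receptor induces, had nearly all counts in f/wt embryos. Cyp1a1 had 5 counts in Δm/wt, in embryos 1 and 5, and 203 in f/wt, of which f/wt 4 and 5 gave 116 and 78 (log2 fold change -4.95, adjusted p = 0.0255). The call was lost when f/wt 4 or f/wt 5 was left out (-4.09 and -4.33, adjusted p = 0.0635 and 0.0528). Cyp1b1, which acts on estrogens and retinoids, had 0, 0 and 1.74 CPM in Δm/wt samples and 0, 2.41 and 8.96 CPM in f/wt samples. It had 7 counts in Δm/wt, all in Δm/wt 2, and 202 in f/wt, and was not called (-3.99, adjusted p = 0.0564). The other 8 of these 13 genes, among them Cyp20a1 (-1.32), Cyp2s1 (-1.53), Cyp2ab1 (2.83) and Cyp4f16 (2.36), had adjusted p values above 0.05.

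Some branches of the family held few counts. The Cyp3a cluster on chr5, the main drug-oxidising P450 genes of liver, had 59 counts in Δm/wt and 35 in f/wt over 8 members, none measured. The Cyp2d cluster on chr15 had 1 count in Δm/wt and 228 in f/wt over 10 members, 169 of them in Cyp2d40. In all, 22 Cyp genes had no count in any library and 45 had counts below the minimum. Just inside the minimum were Cyp2d40 (169 counts), Cyp4a12b (164) and Cyp4f16 (164), and just outside were Cyp2j13 (143), Cyp27b1 (117) and Cyp2a22 (105).

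The partners that P450 enzymes need were set beside them. Of 13 genes for electron transfer 10 were tested, 2 were higher and none lower (all genes tested: 21.9% higher, 22.8% lower). Fdx1, the ferredoxin that feeds the mitochondrial P450 enzymes such as Cyp11a1, had 45.7, 79.7 and 251 CPM in Δm/wt samples and 0.105, 6.19 and 30.9 CPM in f/wt samples, without overlap (log2 fold change 3.33 ± 0.83, adjusted p = 0.00298), a call that ended with embryos 4 to 8 (2.15, adjusted p = 0.0896). Cyb5r4, a reductase of the cytochrome b5 family, averaged 294 CPM in Δm/wt and 104 CPM in f/wt (1.5 ± 0.38, adjusted p = 0.00333). Pgrmc1, a heme-binding partner, averaged 70.0 CPM in Δm/wt and 99.99 CPM in f/wt and was not called (adjusted p = 0.356), but was lower with Δm/wt 1 to 3 as the only Δm/wt embryos (-1.64, adjusted p = 0.0424). Por, the reductase of the microsomal P450 enzymes aromatase and Cyp51 included, chosen here after its values were seen, had 0.126, 2.00 and 12.8 CPM in Δm/wt samples and 0.108, 1.79 and 8.83 CPM in f/wt samples and was not called either (log2 fold change -0.27 ± 1.01, adjusted p = 0.845).

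In heme synthesis, Cpox, a later enzyme, averaged 21.4 CPM in Δm/wt and 5.96 CPM in f/wt and was higher (log2 fold change 1.84, adjusted p = 0.0236), a call that was lost with library totals (adjusted p = 0.0674), without the filter on low counts (adjusted p = 0.0507), with embryos 4 to 8 (adjusted p = 0.170), with Δm/wt 1 to 3 as the only Δm/wt embryos (adjusted p = 0.121) and without f/wt 1 or f/wt 8 (adjusted p = 0.0501 and 0.0563). Slc25a38, a glycine carrier, was not called (adjusted p = 0.240).

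Steroid enzymes outside the P450 family showed 5 genes higher and none lower among 10 tested of 22 listed. Over all genes tested 21.9% were higher and 22.8% lower. Hsd17b12, which also elongates fatty acids, had 129, 216 and 289 CPM in Δm/wt samples and 35.2, 56.6 and 97.0 CPM in f/wt samples, without overlap (log2 fold change 1.72, adjusted p = 5.04e-04). Hsd11b1, which regenerates glucocorticoid, had 6.45, 17.5 and 200 CPM in Δm/wt samples and 0, 0.130 and 4.32 CPM in f/wt samples, also without overlap (6.15, adjusted p = 4.14e-04). Srd5a3, a polyprenol reductase, averaged 101 CPM in Δm/wt and 28.4 CPM in f/wt (1.83, adjusted p = 0.00383), a call absent with Δm/wt 1 to 3 as the only Δm/wt embryos (0.75, adjusted p = 0.345). Hsd3b7, an enzyme of bile acid synthesis, averaged 84.0 CPM in Δm/wt and 27.5 CPM in f/wt and missed the threshold (1.61, adjusted p = 0.0736), though it passed under 5 of the alternatives, DESeq2 (adjusted p = 0.0306) and leaving out f/wt 6 (2.33, adjusted p = 0.0149) among them.

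Among 17 regulators of P450 genes, 9 were tested, none was higher and 1 was lower (all genes tested: 21.9% higher, 22.8% lower). This was Nr5a2, a nuclear receptor known to drive aromatase in granulosa cells, with 4.18, 8.30 and 95.7 CPM in Δm/wt samples and 17.8, 93.5 and 115 CPM in f/wt samples (log2 fold change -1.93, adjusted p = 0.0282). The groups overlapped, and the call ended with the reference gene scaling (-0.89, adjusted p = 0.365), with embryos 4 to 8 (-1.13, adjusted p = 0.347), with a term for the sets of embryos (adjusted p = 0.0645) and without f/wt 1 or f/wt 2 and 3 (adjusted p = 0.0537 and 0.0543). Arnt, the partner of the aryl hydrocarbon receptor, averaged 44.0 CPM in Δm/wt and 24.7 CPM in f/wt and was not called (adjusted p = 0.227). Of the 18 genes of conjugation and epoxide handling that act after P450 enzymes, 9 were tested. Among them 4 were higher and none lower (all genes tested: 21.9% higher, 22.8% lower). Gstm5 and Gstp1, glutathione transferases, averaged 254 and 96.2 CPM in Δm/wt against 53.7 and 5.27 CPM in f/wt (log2 fold changes 2.24 and 4.19), and the quinone reductase gene Nqo1 averaged 49.2 CPM in Δm/wt and 9.5 CPM in f/wt (2.37, with an adjusted p of 0.0572 when Δm/wt 1 to 3 were the only Δm/wt embryos). Ugcg, which glucosylates ceramide, had 132 to 754 CPM in Δm/wt and 236 to 609.8 CPM in f/wt and was not called (adjusted p = 0.739).

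**Figure D5:**
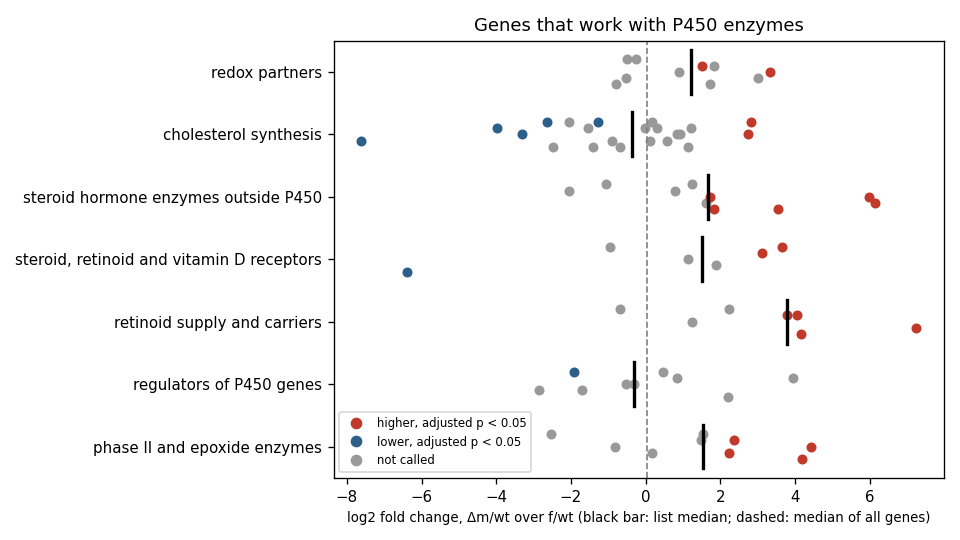
Log2 fold changes of Δm/wt over f/wt for the tested genes of 7 lists of P450 partners, each point 1 gene, red for higher, blue for lower and grey for not called, with the median of each list as a black bar and the median of all genes tested (0.04) as a dashed line. Among called genes, cholesterol synthesis has 2 higher and 5 lower, while retinoid supply has 4 higher and none lower. Over all genes tested 21.9% were higher and 22.8% lower.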

How the data were processed

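Single two-cell stage embryos were sequenced as short single-end reads from oligo-dT cDNA. According to the submitters' processing notes and the methods, the authors aligned reads to mm10 with TopHat2 (2.0.6) and made the deposited counts per RefSeq gene with HTSeq (0.6.1); these raw integer counts were used, and no repeat counts. The strand setting and annotation release were not given in the sources used here, and reads carried no molecular identifiers, so intervals cover counting error only.

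The f/wt libraries 2 and 3 were summed. The 60% of counted genes with the highest sums were kept (at least 316 counts), scaled by TMM and tested with edgeR 4.0.16 (R 4.3.3) on 8 Δm/wt and 7 f/wt samples, with Benjamini-Hochberg adjustment; the script was tested on simulated data. SE is the fold change divided by the root of F. The members and lists were chosen with earlier results of these data known. Named in full were measured Cyp genes that passed, plus 6 fixed ones; of each partner list, up to 3 passing genes and 1 not passing with the highest mean CPM. Alternatives were library totals, scaling to Hprt, Gapdh and Ppia, DESeq2 1.42.0, no filter, a replicate block, embryo sets and leaving out samples; samples left out of the unfiltered fit and of the pooled ratios, and the granulosa sum without Amhr2, were added after the data were seen. The 3 sets of embryos (1 and 2, 3, 4 to 8) follow the study's table of read numbers. Shared words and exons were read from GENCODE M21 transcripts, and promoters from RefSeq GRCm38.p6, which matched 77 of 104 members. Some results of the list of heme synthesis genes are not reported here.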

Additional observations from a re-analysis of the deposited data

Results flagged for a closer look

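A total of 8 of 48 sets of samples, each set 1 gene in 1 group, held a sample that stood far from the others of its group by Dixon's criterion, on log2 CPM with a prior count of 2; chance gives about 1 in 20 where values are not tied. In 3 of the 8 (Cyp26a1, Cyp2r1 and Cyp2b13) all other samples of the group had 0 counts, so that any counted sample meets the criterion and this rate does not apply. In Δm/wt 8, Cyp2b23 was at -2.07 (3.49 to 4.91 in the other Δm/wt samples) and Cyp2f2 at -1.16 (3.17 to 4.78). In Δm/wt 4, Cyp2b19 was at 2.31 (-2.07 to -0.28 in the others). In f/wt 5, Cyp2a4 was at 1.13 (-2.07 to -1.29 in the other f/wt samples), Cyp4a10 at 1.66 (-2.07 to -1.39) and Cyp2b13 at -1.14, from 2 counts, with all others at 0 counts. In f/wt 7, Cyp26a1 was at -1.15, again from 2 counts, and in f/wt 1, Cyp2r1 was at 2.69, from 44 counts, with 0 counts in all other f/wt samples for both genes.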

How the results depend on the processing

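Cyp19a1 and Cyp51 kept their direction and call under every alternative. So did Cyp26a1, Cyp2b13, Cyp2a4 and Cyp4a10 wherever they were tested; they were not tested with Δm/wt 1 to 3 alone, nor was Cyp2b13 without Δm/wt 7 or 8. The number of higher Cyp genes, 10, became 8 with library totals, 12 with scaling to the 3 reference genes, 10 with DESeq2, 9 with f/wt 2 and 3 apart, 7 in embryos 4 to 8, 8 with a term for the sets of embryos and 18 without the filter, where more genes were tested; of the 24 genes of the filtered test 8 were then higher, as Cyp7b1 and Cyp2f2 lost their calls. It was 2 with Δm/wt 1 to 3 alone, where fewer were, and 7 to 9 with a sample left out. The number of lower Cyp genes, 1, became 8 without the filter and was 1 to 2 with a sample left out, being 2 without Δm/wt 4. Over all genes 2488 higher and 2583 lower became 1893 and 3117 with library totals, which moved the median of all genes to -0.32, and 3636 and 1446 with the reference genes, which moved it to 0.86; in embryos 4 to 8 they were 1465 and 1675. With Δm/wt 1 to 3 alone 1250 were higher and 2015 lower, with a median of -0.35. Leaving out a sample gave 2153 to 2449 higher and 2309 to 2712 lower.

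Of the partner genes tested 22 genes were higher and 8 genes lower. Of all 11344 genes tested 2488 were higher (21.9%) and 2583 lower (22.8%). With Δm/wt 1 to 3 alone 13 were higher; lower were 5 with the reference genes, 14 without the filter and 5 in embryos 4 to 8, and 6 to 10 with a sample left out. A minimum of 320 counts would leave 24 measured Cyp genes in place of 37. Directions turned for genes that were not called: with the reference genes Cyp2e1 (0.34), Cyp46a1 (0.13), Cyp2c40 (0.54), Cyp4f39 (0.037), Rdh10 (0.12) and Pgrmc1 (0.32), with the term for sets Cyp2c40 (0.17), with library totals Ugcg (-0.20) and with Δm/wt 1 to 3 alone Ugcg (-0.95). The cause of these changes was not tested.

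The labels give embryos of both groups the same numbers, but nothing ties them; deviations of same-numbered embryos correlated at -0.07 to 0.14 over 7 pairs. With the number as a replicate block 10 Cyp genes were higher, Cyp7b1 and Cyp4a14 lost their calls (adjusted p = 0.110 and 0.0882), Cyp2c29 (5.36) and Cyp2r1 (6.44) became higher, Acat2, Cpox and Esr1 missed the threshold (adjusted p = 0.0580, 0.0691 and 0.0551), Hsd3b7 (2.34) passed it, and Cyp2c67 (0.23) and Cyp2c40 (0.91) changed direction.

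With 3212510 to 14334244 counts per library, a gene of 1 CPM gave only a few counts, and absence was not shown for any Cyp gene.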
